A study of Mus musculus with 12 samples.

Results

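The acute-phase reactants studied here are 10 mouse genes for plasma proteins of the acute-phase response: Saa1, Saa2, Saa3, Crp, Apcs, Hp, Hpx, Orm1, Orm2 and Lcn2. They were taken by name from the 46983 genes of the count tables, and all 10 passed the filter on low counts that left 15664 genes for testing. RNA was measured in primary mouse hepatocytes, liver cells isolated from mice and kept in culture, in 4 groups of 3 libraries. The first group was made of AEG-1-L24K/L25H hepatocytes (the knock-in) given CP775146 at 2.5 µM for 24 h, and the second of untreated AEG-1-L24K/L25H hepatocytes. The other groups were AEG-1-WT hepatocytes (wild type) under the same treatment and untreated AEG-1-WT hepatocytes. The knock-in was made with CRISPR/Cas9 in C57BL/6/J mice and changes a pair of neighbouring leucines of AEG-1, the protein encoded by Mtdh, which is known to promote NF-κB activity and to bind RXR, the partner of many nuclear receptors. Mice of both genotypes were littermates from crosses of heterozygotes and ate regular chow. CP775146 is an agonist of PPAR-alpha, the nuclear receptor that switches on fatty acid oxidation in liver. No vehicle was named for the untreated cells, no age was given. Whether the 3 libraries within a group are separate mice, isolations or dishes was not stated. P-values therefore measure the spread between these libraries, and an effect of the mutation cannot be told apart from one of the mice or preparations used.

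The acute-phase response is the change in blood plasma proteins that follows infection or injury. Cytokines of the IL-6 family act through STAT3, and IL-1 and TNF act through NF-κB, on hepatocytes, which then secrete more of some proteins (positive reactants) and less of others such as albumin (negative reactants). In the mouse the serum amyloid A proteins and serum amyloid P component respond strongly, while C-reactive protein, the main clinical marker in humans, responds weakly. No inflammatory stimulus was given to the cells described here, so the values are levels in cultured hepatocytes with and without the PPAR-alpha agonist. Levels are CPM, counts divided by library size on the scale of edgeR's TMM method, and every fold change is on the log2 scale with its standard error. Each adjusted p comes from edgeR (quasi-likelihood F test), adjusted by Benjamini and Hochberg's method over all tested genes, and a change was called when it was below 0.05.

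Total counts ran from 26956032 to 34885451 per library, so that 3 counts equal 0.086 to 0.111 CPM before TMM scaling, well below every level of the 10 genes. The wild-type groups varied more, with coefficients of biological variation of 2.63% in treated and 2.59% in untreated knock-in, against 5.33% in treated and 5.1% in untreated wild type. Treated wild-type replicate 2 was the lowest of its group for 9 of the 10 genes. Mtdh counts cannot check the edit, since the altered codons lie in a transcript that is still made: Mtdh averaged 173 ± 1.98 CPM in untreated knock-in and 166 ± 8.47 CPM in untreated wild type (SD, n = 3 each). Albumin, the defining product of hepatocytes, took 6.55% to 7.73% of the counts of a knock-in library and 9.84% to 10.26% of those of a wild-type library.

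Together the 10 genes took 1.445% to 1.842% of the counts of a library, and most of them were lower in the knock-in. Their summed level averaged 14289 ± 118 CPM in treated knock-in, 15006 ± 206 CPM in untreated knock-in, 19015 ± 970 CPM in treated wild type and 18526 ± 69.3 CPM in untreated wild type (SD, n = 3 each). Hpx was the largest part of that sum, at 8809 CPM in untreated wild type and 6424 CPM in untreated knock-in. Saa3, the smallest part, averaged 37.1 and 21.3 CPM in the same groups. Per kilobase of exon, Hpx had the highest level in untreated wild type at 5960 CPM per kb, followed by Hp at 2402 and Saa1 at 1620 CPM per kb. Saa3 had the lowest at 69.9 CPM per kb, below Crp at 101 CPM per kb. The length used is that of all annotated exons merged, 2623 bases for Lcn2 and 3444 for Crp. The order per kilobase therefore depends on the annotation. In bulk RNA, fewer cells of a type and less RNA per cell cannot be told apart, here or in any result that follows.

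**Figure D1:**
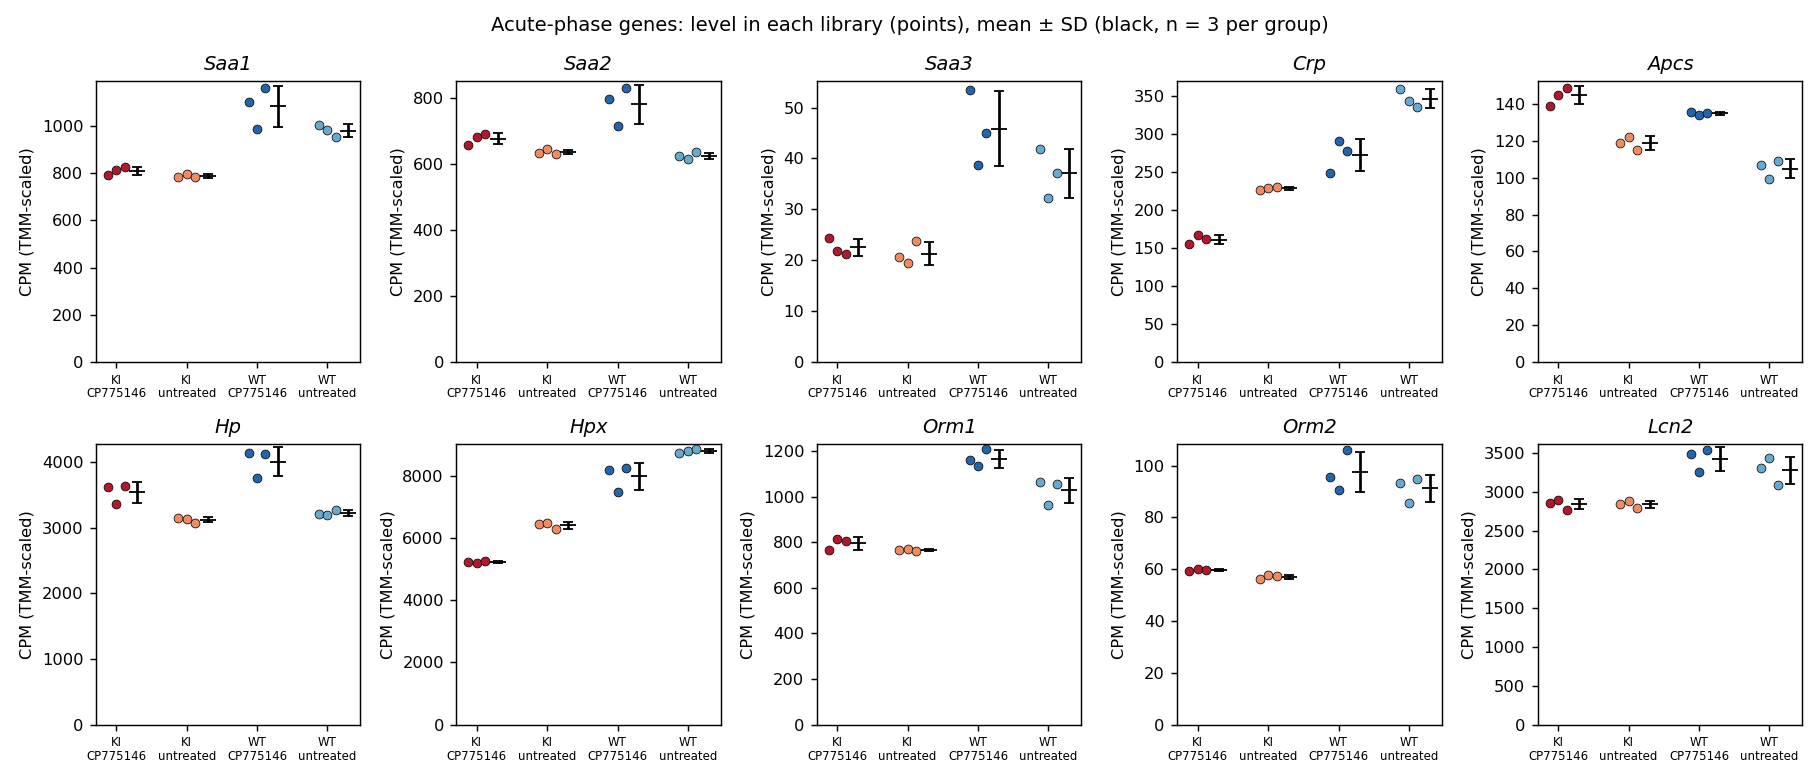
Level of each acute-phase gene in each library, in CPM on TMM-scaled library sizes (vertical axis, from 0), for the 4 groups (horizontal axis), with points for libraries and black bars for mean ± SD (n = 3). For Crp the groups run from 161 CPM in treated knock-in to 347 CPM in untreated wild type without overlap, while for Lcn2 the treated and untreated libraries of each genotype overlap.

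The serum amyloid A proteins are apolipoproteins of high-density lipoprotein that rise steeply in inflammation. Saa1 and Saa2 are made in the liver, and Saa3 is the form known mainly from macrophages and fat tissue. The genes lie together on chromosome 7 of GRCm38/mm10, with Saa3 at chr7:46711998-46715676 and Saa1 at chr7:46740501-46742980 on the minus strand and Saa2 at chr7:46751833-46754314 on the plus strand. Saa1 and Saa2 are near-identical copies: 31.5% of the 50-base words of Saa1 and 30% of those of Saa2 also occur in exons of another gene, so reads may have been lost or split between them. Their upstream sequences are shown because the pair share most of their letters while the ratio of their counts, differed in level between the groups. These are the 250 bases before each RefSeq start on GRCm38.p6, Saa1 from chr7:46742981-46743230 (minus strand) and Saa2 from chr7:46751583-46751832 (plus strand). Capitals mark matches on either strand to TTGCNNAA, written for C/EBP, and to GG, any 3 bases, TT, any base and CC, written for NF-κB.
Saa1: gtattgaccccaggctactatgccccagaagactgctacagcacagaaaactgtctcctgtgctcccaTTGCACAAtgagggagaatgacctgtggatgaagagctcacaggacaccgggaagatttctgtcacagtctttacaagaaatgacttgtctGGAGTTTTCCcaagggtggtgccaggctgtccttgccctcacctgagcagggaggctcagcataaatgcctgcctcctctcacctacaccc
Saa2: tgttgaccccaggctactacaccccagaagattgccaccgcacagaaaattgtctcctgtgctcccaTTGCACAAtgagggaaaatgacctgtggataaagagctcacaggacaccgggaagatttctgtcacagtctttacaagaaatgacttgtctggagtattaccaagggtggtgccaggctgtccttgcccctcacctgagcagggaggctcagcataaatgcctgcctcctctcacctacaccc
The aligned sequences had 238 identical bases, 11 mismatches and 2 gap positions, an identity of 94.8%. Both held the C/EBP letters, at bases 182 to 175 before the start in Saa1 and 183 to 176 in Saa2. The NF-κB letters were found only in Saa1 among the 8 acute-phase genes with a promoter in the table, at bases 91 to 82 before the start. Of 32851 mouse promoters of the same length, 13% held the NF-κB letters and 9.56% the C/EBP letters, while 6 of the 8 acute-phase promoters held the C/EBP letters, those of Saa1, Saa2, Saa3, Hpx, Orm2 and Lcn2. A match describes the letters and does not show binding.

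Saa1 was lower in the knock-in with and without the agonist. It stood at 794, 812 and 827 CPM in treated knock-in, 783, 797 and 784 CPM in untreated knock-in, 1104, 988 and 1160 CPM in treated wild type and 1007, 982 and 952 CPM in untreated wild type. Every knock-in library was below every wild-type library, and the treated libraries of each genotype overlapped the untreated ones. The log2 difference between knock-in and wild type was -0.42 ± 0.04 with CP775146 (adjusted p = 3.52e-09) and -0.31 ± 0.04 without it (adjusted p = 8.21e-07). CP775146 changed Saa1 by 0.04 ± 0.04 in the knock-in (adjusted p = 0.499) and by 0.15 ± 0.04 in wild type (adjusted p = 0.00678). The wild-type call was lost without treated wild-type replicate 3 (0.09, adjusted p = 0.0984) and with total-count scaling (0.05, adjusted p = 0.38).

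Of the 10 genes, Saa2 was the one whose response to CP775146 was called as differing between genotypes. Its libraries stood at 658, 681 and 692 CPM in treated knock-in, 633, 644 and 631 CPM in untreated knock-in, 797, 716 and 831 CPM in treated wild type and 624, 616 and 635 CPM in untreated wild type. The untreated genotypes overlapped, whereas each treated wild-type library was above every library of the other groups. CP775146 changed Saa2 by 0.09 ± 0.04 in the knock-in (adjusted p = 0.0945) and by 0.32 ± 0.04 in wild type (adjusted p = 2.24e-07). The knock-in value was called without treated wild-type replicate 2 (0.1, adjusted p = 0.0196) or 3 (0.1, adjusted p = 0.0452), in the knock-in groups alone (0.1, adjusted p = 0.00253) and with limma voom (0.09, adjusted p = 0.0156). The difference between these responses was -0.23 ± 0.06 (interaction, adjusted p = 0.0132). It was -0.17 (adjusted p = 0.0694) without treated wild-type replicate 3, and -0.15 (adjusted p = 0.124) with Saa1 and Saa2 summed as 1 gene. The genotypes differed by -0.21 ± 0.04 with treatment (adjusted p = 0.000159), a call lost with total-count scaling (-0.07, adjusted p = 0.163). Without treatment they differed by 0.02 ± 0.04, with a 95% interval of -0.06 to 0.11 (adjusted p = 0.684). This value was 0.13 (adjusted p = 0.0133) with total-count scaling and -0.17 (adjusted p = 0.00147) with Saa1 and Saa2 summed.

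The ratio of Saa1 to Saa2 counts within a library does not depend on scaling. It averaged 1.2 ± 0.00764 in treated knock-in, 1.24 ± 0.00188 in untreated knock-in, 1.39 ± 0.0077 in treated wild type and 1.57 ± 0.0615 in untreated wild type (SD, n = 3 each). The groups did not overlap in any of the 4 comparisons, and each exact two-sided permutation test gave p = 0.1, the smallest that 3 libraries against 3 allow. How reads were assigned between the near-identical copies was not tested.

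Saa3 had the lowest CPM of the 10 genes in each group and the largest fall in the knock-in by fold change. Per kilobase of exon it was also the lowest, except in treated wild type (86.3 CPM per kb, against 79.2 for Crp). Saa3 stood at 24.4, 21.8 and 21.3 CPM in treated knock-in, 20.7, 19.5 and 23.8 CPM in untreated knock-in, 53.5, 38.8 and 45.1 CPM in treated wild type and 41.9, 32.2 and 37.1 CPM in untreated wild type. All knock-in libraries were below all wild-type libraries. The log2 difference was -1.03 ± 0.14 with CP775146 (adjusted p = 0.000231) and -0.8 ± 0.14 without it (adjusted p = 0.00176). CP775146 itself gave 0.07 ± 0.15 in the knock-in (adjusted p = 0.747) and 0.31 ± 0.13 in wild type (adjusted p = 0.0978). The wild-type value was called without treated wild-type replicate 2 (0.41, adjusted p = 0.024) or untreated wild-type replicate 1 (0.41, adjusted p = 0.0495). It was also called with the replicate number as a block (0.3, adjusted p = 0.000993) and with that block within genotype (0.3, adjusted p = 0.000275). Saa3 is known from macrophages, and markers of macrophages were near the floor: 7 of 10, among them Adgre1, Clec4f and Ptprc, stayed below 1 CPM in every library. The exception by level was Cd68, also present in other cells, at 110 CPM in treated knock-in, 151 in untreated knock-in, 185 in treated wild type and 234 in untreated wild type. Its part in the Saa3 values was not tested.

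Saa4, the constitutive serum amyloid A gene between Saa3 and Saa1 on the chromosome, changed with the agonist and not with genotype. It stood at 11.2, 10.4 and 10.9 CPM in treated knock-in, 18.5, 19.2 and 19.7 CPM in untreated knock-in, 10.8, 9.19 and 10.8 CPM in treated wild type and 18.8, 18.3 and 20.7 CPM in untreated wild type. Treated and untreated libraries were fully apart in both genotypes. The effect of CP775146 was -0.82 ± 0.07 in the knock-in (adjusted p = 7.17e-11) and -0.91 ± 0.07 in wild type (adjusted p = 1.68e-11). The genotype difference was 0.08 ± 0.08 with treatment (adjusted p = 0.469) and -0.01 ± 0.07 without it (adjusted p = 0.919).

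The pentraxins are ring-shaped plasma proteins that bind microbes and dead cells. Crp encodes C-reactive protein and Apcs serum amyloid P component, the major acute-phase pentraxin of the mouse. The genes are neighbours on chromosome 1, Crp at chr1:172698055-172833031 on the plus strand and Apcs at chr1:172893961-172895041 on the minus strand. Crp and Apcs moved in opposite directions in all 4 comparisons of 2 groups. Their upstream sequences are shown for that reason, Crp from chr1:172697806-172698055 (plus strand) and Apcs from chr1:172895055-172895304 (minus strand), both from RefSeq on GRCm38.p6. Capitals mark a match to TTCNNNGAA, written for STAT factors.
Crp: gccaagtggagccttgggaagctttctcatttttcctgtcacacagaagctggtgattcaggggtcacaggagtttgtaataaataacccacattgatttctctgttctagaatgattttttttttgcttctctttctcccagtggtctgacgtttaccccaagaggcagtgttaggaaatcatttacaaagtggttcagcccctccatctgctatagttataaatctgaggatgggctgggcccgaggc
Apcs: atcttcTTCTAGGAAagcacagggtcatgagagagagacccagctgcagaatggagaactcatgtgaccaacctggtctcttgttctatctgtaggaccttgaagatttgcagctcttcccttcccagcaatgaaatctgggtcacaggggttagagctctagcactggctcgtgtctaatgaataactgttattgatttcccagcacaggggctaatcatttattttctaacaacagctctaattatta
The STAT letters were found in Apcs alone among the 8 promoters, at bases 244 to 236 before the start, and in 7.02% of the 32851 promoters. Neither sequence held the C/EBP or NF-κB letters. GTTAAT, a core written for HNF1, and AGGTCA repeated in the same direction after 1 base, written for PPAR with its partner RXR, were found in none of the 8. On either strand they were present in 6.43% and 0.0335% of the 32851 promoters.

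Crp fell in the knock-in and fell with CP775146. Its libraries stood at 155, 167 and 162 CPM in treated knock-in, 227, 229 and 231 CPM in untreated knock-in, 249, 291 and 278 CPM in treated wild type and 360, 344 and 336 CPM in untreated wild type. No group overlapped another, and treated knock-in was the lowest. Between genotypes Crp differed by -0.76 ± 0.05 with CP775146 (adjusted p = 4.57e-14) and -0.6 ± 0.04 without it (adjusted p = 6.8e-12). The effect of CP775146 on Crp was -0.51 ± 0.05 in the knock-in (adjusted p = 2.47e-10) and -0.35 ± 0.04 in wild type (adjusted p = 2.08e-07). The difference between these responses was -0.16 ± 0.06 (adjusted p = 0.135), and it was called only without treated wild-type replicate 1 (-0.21, adjusted p = 0.0206). Crp had the widest range of group means of the 10 genes, 1.11 on the log2 scale, at percentile 87.2 of all tested genes.

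Of the 10 genes, Apcs was the one called as higher in the knock-in, although Saa2 was called so too without treatment under total-count scaling. It stood at 139, 145 and 149 CPM in treated knock-in, 119, 122 and 115 CPM in untreated knock-in, 136, 134 and 135 CPM in treated wild type and 107, 99.5 and 109 CPM in untreated wild type. Treated libraries were above untreated ones in both genotypes. CP775146 raised Apcs by 0.29 ± 0.04 in the knock-in (adjusted p = 1.18e-06) and by 0.36 ± 0.04 in wild type (adjusted p = 2.74e-08). The genotype difference was 0.17 ± 0.04 without treatment (adjusted p = 0.00154). With treatment it was 0.1 ± 0.04 (adjusted p = 0.0479), a call lost when any of 7 of the 12 libraries was left out, with adjusted p up to 0.21. Those were untreated knock-in replicates 1 and 2, treated knock-in replicates 2 and 3, untreated wild-type replicate 1 and treated wild-type replicates 2 and 3. The ratio of Apcs to Crp counts averaged 0.899 ± 0.0269 in treated knock-in, 0.518 ± 0.0189 in untreated knock-in, 0.497 ± 0.0424 in treated wild type and 0.304 ± 0.0185 in untreated wild type (SD, n = 3 each). The groups were apart in each of the 4 comparisons (exact two-sided permutation p = 0.1, the smallest possible).

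Haptoglobin, from Hp, binds free haemoglobin, and hemopexin, from Hpx, binds free haem, so that iron released from broken red cells is carried to the liver. Hp lies at chr8:109575130-109579172 and Hpx at chr7:105591613-105600116, both on the minus strand. These partners in haem scavenging also moved apart under CP775146, Hp rising and Hpx falling in both genotypes. Hp stood at 3625, 3362 and 3644 CPM in treated knock-in, 3150, 3139 and 3080 CPM in untreated knock-in, 4140, 3758 and 4127 CPM in treated wild type and 3206, 3195 and 3275 CPM in untreated wild type. Treated libraries were above untreated ones in each genotype, and treated wild type was above treated knock-in in every library. CP775146 raised Hp by 0.18 ± 0.04 in the knock-in (adjusted p = 0.000487) and by 0.31 ± 0.04 in wild type (adjusted p = 1.38e-07). The difference between these responses was -0.13 ± 0.06 (adjusted p = 0.177), called without treated wild-type replicate 2 (-0.16, adjusted p = 0.0459) and with limma voom (-0.14, adjusted p = 0.0445). The genotype difference was -0.18 ± 0.04 with treatment (adjusted p = 0.000524), lost with total-count scaling (-0.04, adjusted p = 0.412). Without treatment it was -0.05 ± 0.04 (adjusted p = 0.387), and 0.06 with total-count scaling.

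Hpx, the most abundant of the 10 genes, fell in the knock-in and with the agonist. Its libraries stood at 5232, 5207 and 5266 CPM in treated knock-in, 6469, 6507 and 6296 CPM in untreated knock-in, 8215, 7504 and 8269 CPM in treated wild type and 8755, 8811 and 8863 CPM in untreated wild type. No group overlapped another. Hpx differed between genotypes by -0.61 ± 0.04 with CP775146 (adjusted p = 4.28e-14) and -0.46 ± 0.04 without it (adjusted p = 3.08e-11). The effect of CP775146 on Hpx was -0.3 ± 0.04 in the knock-in (adjusted p = 1.58e-07) and -0.14 ± 0.04 in wild type (adjusted p = 0.00268). The difference between these responses was -0.16 ± 0.05 (adjusted p = 0.0714). It was called without treated wild-type replicate 2 (-0.19, adjusted p = 0.00989), with DESeq2 (-0.15, adjusted p = 0.0392), with limma voom (-0.17, adjusted p = 0.00361) and without the filter (-0.17, adjusted p = 0.0265). The ratio of Hp to Hpx counts averaged 0.677 ± 0.027 in treated knock-in, 0.486 ± 0.0034 in untreated knock-in, 0.501 ± 0.00244 in treated wild type and 0.366 ± 0.00343 in untreated wild type (SD, n = 3 each). Each of the 4 comparisons again separated the groups (exact two-sided permutation p = 0.1, the smallest possible).

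**Figure D2:**
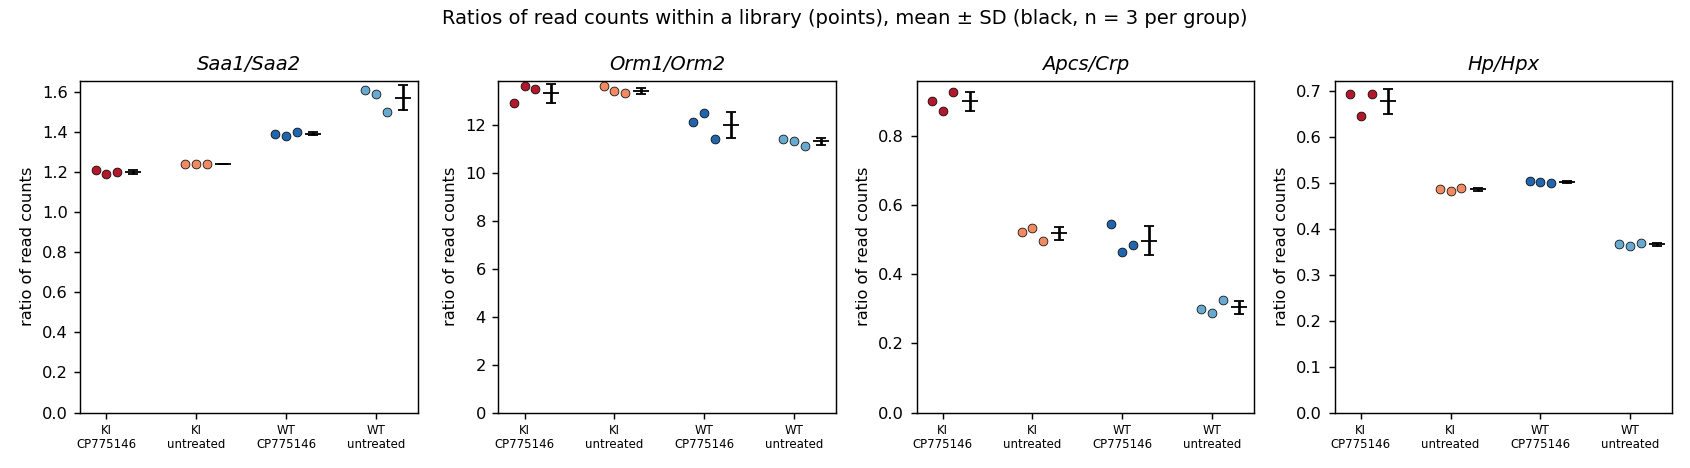
Ratio of the read counts of a pair of acute-phase genes in each library (vertical axis, from 0) for the 4 groups (horizontal axis), with points for libraries and black bars for mean ± SD (n = 3). Apcs/Crp averaged 0.899 in treated knock-in and 0.304 in untreated wild type, and Hp/Hpx averaged 0.677 in treated knock-in and 0.366 in untreated wild type. Saa1/Saa2 ran the other way, at 1.2 in treated knock-in and 1.57 in untreated wild type.

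The orosomucoids, or alpha-1-acid glycoproteins, are lipocalins that carry drugs and lipids in plasma. Orm1 at chr4:63344560-63348163 and Orm2 at chr4:63362449-63365878, both on the plus strand, flank Orm3 on chromosome 4, and 20.4% and 22.7% of their 50-base words are shared with other genes, among them the other orosomucoid genes. Both were lower in the knock-in. Orm1 stood at 764, 815 and 807 CPM in treated knock-in, 765, 771 and 763 CPM in untreated knock-in, 1159, 1133 and 1210 CPM in treated wild type and 1063, 965 and 1057 CPM in untreated wild type. Knock-in libraries were below all wild-type libraries, and the treated and untreated groups overlapped in the knock-in alone. The genotype difference was -0.55 ± 0.04 with CP775146 (adjusted p = 1.69e-12) and -0.42 ± 0.04 without it (adjusted p = 6.05e-10). CP775146 gave 0.05 ± 0.04 in the knock-in (adjusted p = 0.312) and 0.18 ± 0.04 in wild type (adjusted p = 0.000379), the wild-type call being lost with total-count scaling (0.08, adjusted p = 0.0816). The difference between these responses was -0.13 ± 0.06 (adjusted p = 0.188).

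Orm2 stood at 59.3, 60.1 and 59.7 CPM in treated knock-in, 56.4, 57.8 and 57.2 CPM in untreated knock-in, 95.6, 90.8 and 106 CPM in treated wild type and 93.2, 85.5 and 95 CPM in untreated wild type. Genotypes were far apart and treatments close together. The genotype difference was -0.71 ± 0.05 with CP775146 (adjusted p = 7.42e-13) and -0.68 ± 0.05 without it (adjusted p = 2.76e-12). CP775146 gave 0.06 in the knock-in (adjusted p = 0.341) and 0.09 ± 0.05 in wild type (adjusted p = 0.117). The wild-type value was called without treated wild-type replicate 2 (0.14, adjusted p = 0.0197) and was -0.01 with total-count scaling. Orm3, between the other orosomucoid genes, averaged 14.8 ± 0.3 CPM in treated knock-in, 14.8 ± 0.0911 in untreated knock-in, 25 ± 0.949 in treated wild type and 25.8 ± 0.833 in untreated wild type (SD, n = 3 each). Its genotype difference was -0.76 ± 0.06 with treatment (adjusted p = 4.55e-12) and -0.8 ± 0.06 without it (adjusted p = 1.81e-12). With the 3 orosomucoid genes summed as 1, the difference was -0.57 with treatment and -0.45 without it. That sum is mostly Orm1, and how shared reads were assigned to Orm2 and Orm3 was not tested. The ratio of Orm1 to Orm2 counts averaged 13.3 ± 0.384 in treated knock-in, 13.4 ± 0.122 in untreated knock-in, 12 ± 0.54 in treated wild type and 11.3 ± 0.144 in untreated wild type (SD, n = 3 each).

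Lipocalin 2, from Lcn2 at chr2:32384633-32388252 on the minus strand, binds bacterial iron carriers and is strongly induced by IL-1 and IL-6. Lcn2 stood at 2854, 2893 and 2771 CPM in treated knock-in, 2847, 2886 and 2796 CPM in untreated knock-in, 3494, 3252 and 3535 CPM in treated wild type and 3308, 3436 and 3086 CPM in untreated wild type. The genotypes did not overlap, and treated and untreated libraries did. For Lcn2 the genotypes differed by -0.27 ± 0.04 with CP775146 (adjusted p = 2.06e-06) and -0.2 ± 0.04 without it (adjusted p = 0.000138). CP775146 gave 0 in the knock-in, with a 95% interval of -0.08 to 0.08 (adjusted p = 0.982), and 0.06 ± 0.04 in wild type (adjusted p = 0.198). The wild-type value was called without untreated wild-type replicate 2 (0.1, adjusted p = 0.0452) and was -0.03 with total-count scaling. Lcn2 is also a neutrophil granule protein, and all 10 neutrophil markers stayed below 1 CPM in every library, with Mpo, Elane and Cxcr2 at 0.

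Set side by side, the comparisons differed in how many of the 10 genes were called. Without treatment, 1 rose in the knock-in (Apcs) and 7 fell, with a median log2 change of -0.37, while 37% of all tested genes were called, 18.4% as rises and 18.6% as falls, with a median of -0.004. With CP775146, 1 rose in the knock-in (Apcs) and 9 fell, with a median of -0.49, while 42.5% of all genes were called, 20.5% as rises and 22% as falls, with a median of -0.013. The agonist in the knock-in raised 2 (Apcs and Hp) and lowered 2 (Crp and Hpx), against 37.2% of all genes called, 18.1% as rises and 19.1% as falls. The agonist in wild type raised 5 (Saa1, Saa2, Apcs, Hp and Orm1) and lowered 2 (Crp and Hpx), against 45% of all genes called, 22.7% as rises and 22.3% as falls. For the difference between the agonist's effects in the 2 genotypes, 1 was called as a fall (Saa2), against 7.11% of all genes, 2.78% as rises and 4.33% as falls. The comparisons share libraries, so their counts are not independent of each other. The single model gives the 4 groups 1 estimate of the spread, although the wild-type libraries varied more. Which genotype had more agonist calls over all genes depended on the fit. The single model called 5821 in the knock-in and 7049 in wild type, and DESeq2 5119 and 6355. The compared groups alone gave 6933 in the knock-in and 6129 in wild type, and limma voom 7020 and 6589.

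The falls of Saa1, Saa3, Crp, Hpx, Orm1, Orm2 and Lcn2 in the knock-in were called under every alternative tried, with and without CP775146. With scaling by total counts the median log2 change of all genes was 0.124 for genotype with treatment and -0.104 for CP775146 in wild type. With that scaling, 2 of the 10 rose and 7 fell in untreated knock-in, beside 5024 rises and 1722 falls among the 15664 tested genes. In treated knock-in 1 rose and 7 fell, beside 5950 rises and 1867 falls. Under the same scaling CP775146 raised 3 and lowered 2 in wild type, beside 2358 rises and 5338 falls over all tested genes.

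**Figure D3:**
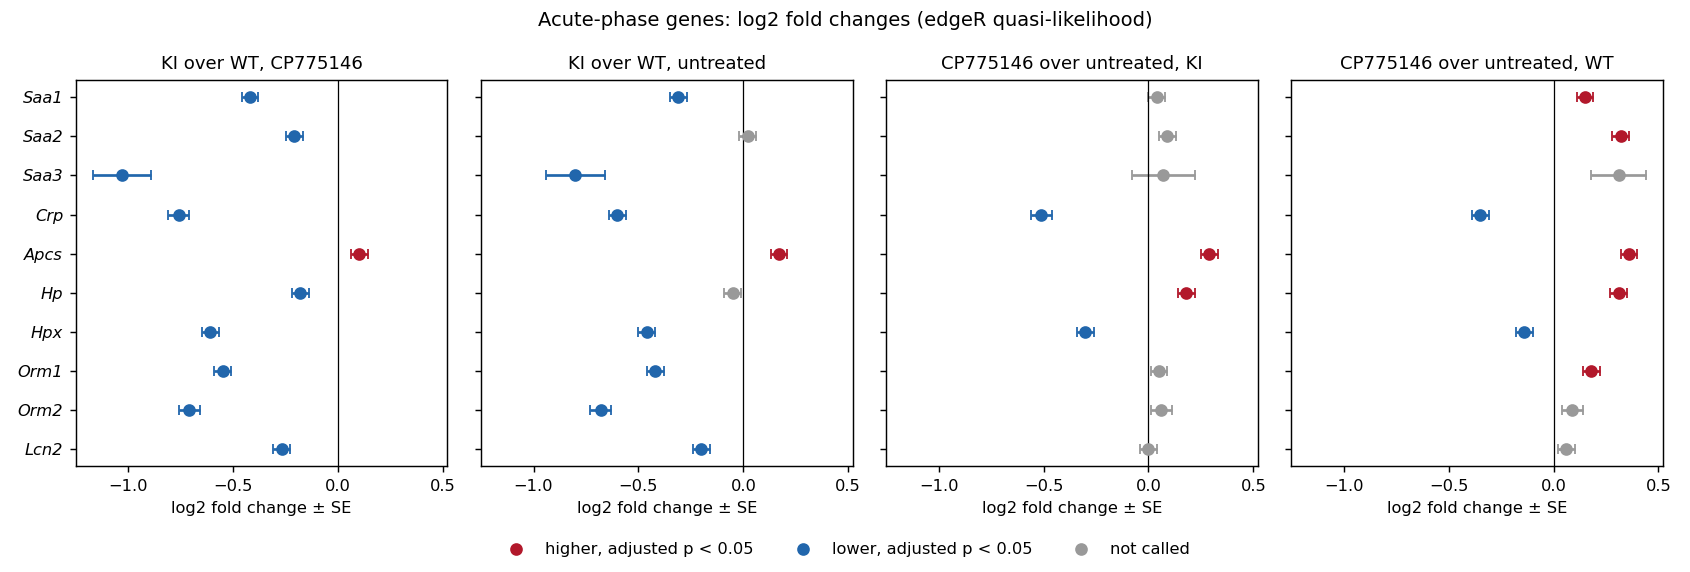
Log2 fold change ± SE of the 10 acute-phase genes (horizontal axis) in the 4 comparisons of 2 groups, from edgeR, with red and blue for called rises and falls and grey for uncalled. Apcs alone lies right of 0 in both genotype panels, and Crp and Hpx alone are called as falls in both CP775146 panels.

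Other positive reactants were examined as a list of 26 further genes of the acute-phase response, of which 25 were tested. With CP775146, 6 rose and 17 fell in the knock-in (median -0.4), beside 20.5% of all tested genes called as rises and 22% as falls. Without it, 6 rose and 17 fell (median -0.35), beside 18.4% and 18.6% of all genes. The agonist raised 1 and lowered 17 in the knock-in (median -0.35), and raised 3 and lowered 12 in wild type (median -0.22). Over all genes the shares called as rises and falls were 18.1% and 19.1% in the knock-in and 22.7% and 22.3% in wild type. Fibrinogen, the soluble clotting protein, is made from Fga, Fgb and Fgg. Fgb averaged 689 ± 14.1 CPM in treated knock-in, 1253 ± 74.4 in untreated knock-in, 755 ± 30.5 in treated wild type and 1169 ± 34.7 in untreated wild type (SD, n = 3 each). The agonist changed Fgb by -0.86 ± 0.04 in the knock-in (adjusted p = 9.41e-17) and by -0.63 ± 0.04 in wild type (adjusted p = 1.31e-13). All 3 fibrinogen genes fell with CP775146 in both genotypes, and Fgb and Fgg fell more in the knock-in (interaction -0.23 ± 0.06, adjusted p = 0.0113, and -0.35 ± 0.05, adjusted p = 7.72e-05). Lbp, which presents bacterial lipopolysaccharide to immune cells, fell with the agonist in each genotype (-0.53 ± 0.04 in both). Serpina3k, Serpina3m and Serpina3n, protease inhibitors, and C4b, a complement component, fell in the knock-in without treatment, with log2 changes of -0.87 to -0.64. These 4 genes have near-identical copies among which reads may be split.

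Negative reactants fell too in the knock-in. Of 12 genes, 10 fell and 0 rose with CP775146 (median -0.4), and 9 fell and 0 rose without it (median -0.17), beside 22% of all genes called as falls with it and 18.6% without it. With total-count scaling the genotype median of all genes was 0.124 with treatment and 0.098 without it. Whether the smaller falls of this list hold under that scaling was not tested. The agonist lowered 7 and raised 0 in the knock-in, and lowered 3 and raised 4 in wild type. Over all genes, 19.1% fell and 18.1% rose in the knock-in, and 22.3% fell and 22.7% rose in wild type. Ahsg, the fetuin that keeps calcium phosphate in solution, averaged 2167 ± 119 CPM in treated knock-in, 4162 ± 18.7 in untreated knock-in, 4647 ± 168 in treated wild type and 7414 ± 194 in untreated wild type (SD, n = 3 each). The genotype difference of Ahsg was -1.1 ± 0.04 with treatment (adjusted p = 2.54e-19) and -0.83 ± 0.04 without it (adjusted p = 1.76e-16). Alb, for albumin, differed by -0.71 ± 0.04 with treatment (adjusted p = 8.63e-16) and -0.53 ± 0.04 without it (adjusted p = 6.72e-13). Igf1, the growth factor of the liver, rose with CP775146 in wild type by 0.49 ± 0.04 (adjusted p = 7.07e-12) and changed by 0.04 ± 0.04 in the knock-in (adjusted p = 0.499). The interaction was called as a fall for 8 of the 12, beside 4.33% of all genes, Igf1 (-0.45 ± 0.05, adjusted p = 1.3e-06) and Trf, for transferrin (-0.33 ± 0.06, adjusted p = 0.00024), among them. Genes whose products inflammation raises and genes whose products it lowers both had medians below 0 in the knock-in.

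The cytokines that drive the response were scarce in these cells. Il6, Osm and Il22 had 0 counts in every library, and 2 of the 8 cytokines listed were tested. Lif, an IL-6 family cytokine, averaged 2.44 ± 0.165 CPM in treated knock-in, 3.25 ± 0.164 in untreated knock-in, 1.31 ± 0.176 in treated wild type and 2.08 ± 0.0635 in untreated wild type (SD, n = 3 each). It was higher in the knock-in with treatment (0.89 ± 0.16, adjusted p = 4.38e-05) and without it (0.64 ± 0.14, adjusted p = 0.000602). CP775146 lowered Lif in the knock-in (-0.42 ± 0.13, adjusted p = 0.0149) and in wild type (-0.66 ± 0.17, adjusted p = 0.00217).

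Receptors and signal carriers of the IL-6 family formed a list of 12 tested genes. With CP775146, 2 rose and 3 fell in the knock-in, a share near the 42.5% of all genes called. Without it, 4 rose and 3 fell, beside 37% of all genes. The agonist raised 2 and lowered 5 in the knock-in, and raised 2 and lowered 4 in wild type, beside 37.2% of all genes called in the knock-in and 45% in wild type. Il6ra, the IL-6 receptor, averaged 37.1 ± 0.899 CPM in treated knock-in, 61.1 ± 2.72 in untreated knock-in, 53.3 ± 1.57 in treated wild type and 79.4 ± 2.12 in untreated wild type (SD, n = 3 each). Il6ra fell with CP775146 in the knock-in (-0.72 ± 0.05, adjusted p = 7.59e-14) and in wild type (-0.57 ± 0.04, adjusted p = 6.09e-12). Il6st, the shared signalling receptor gp130, rose with CP775146 by 0.3 ± 0.04 in the knock-in and 0.57 ± 0.04 in wild type, and the interaction was called (-0.27 ± 0.05, adjusted p = 0.00137). Osmr, the oncostatin M receptor, was higher in the knock-in by 1.37 ± 0.13 with treatment (adjusted p = 7.65e-10) and by 1.14 ± 0.11 without it (adjusted p = 1.81e-09). Stat3 itself, named after its values were seen, fell with CP775146 in the knock-in (-0.23 ± 0.04, adjusted p = 1.79e-05) and in wild type (-0.3 ± 0.04, adjusted p = 1.28e-07).

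Of 22 tested genes of IL-1, TNF and NF-κB signalling, 9 rose and 3 fell in the knock-in with CP775146, and 7 rose and 3 fell without it. Of all genes, 20.5% rose and 22% fell with it, and 18.4% rose and 18.6% fell without it. The agonist raised 4 and lowered 7 in the knock-in, and raised 5 and lowered 7 in wild type, beside 37.2% of all genes called in the knock-in and 45% in wild type. Nfkb2, an NF-κB subunit, averaged 64.4 ± 2.96 CPM in treated knock-in, 72.1 ± 2.43 in untreated knock-in, 39.2 ± 2.62 in treated wild type and 46 ± 1.33 in untreated wild type (SD, n = 3 each). Its genotype difference was 0.72 ± 0.05 with treatment (adjusted p = 8.41e-13) and 0.65 ± 0.05 without it (adjusted p = 6.22e-12). Tnfaip3, an inhibitor that NF-κB induces, differed by 0.55 ± 0.05 with treatment and 0.59 ± 0.05 without it. Il1rap, the accessory chain of the IL-1 receptor, differed by 0.8 ± 0.07 with treatment and 0.72 ± 0.07 without it. The adaptor Myd88 rose with CP775146 by 0.39 ± 0.05 in the knock-in (adjusted p = 9.08e-07) and 0.52 ± 0.06 in wild type (adjusted p = 1.05e-08).

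Among 13 transcription factors of the response and of hepatocytes, 3 rose and 2 fell in the knock-in with CP775146, and 4 rose and 3 fell without it, beside 42.5% of all genes called with it and 37% without it. The agonist raised 5 and lowered 3 in the knock-in, and raised 6 and lowered 6 in wild type, beside 37.2% of all genes called in the knock-in and 45% in wild type. Creb3l3, a membrane-bound factor known to act on the Crp and Apcs promoters and to be a target of PPAR-alpha, had the largest change of the list. It stood at 485, 469 and 482 CPM in treated knock-in, 75.9, 76.1 and 77.6 CPM in untreated knock-in, 466, 413 and 457 CPM in treated wild type and 38.1, 37 and 42.5 CPM in untreated wild type. CP775146 raised Creb3l3 by 2.64 ± 0.05 in the knock-in (adjusted p = 5.61e-27) and by 3.5 ± 0.05 in wild type (adjusted p = 3.54e-29), with an interaction of -0.86 ± 0.07 (adjusted p = 1.42e-09). Without treatment it was higher in the knock-in by 0.96 ± 0.05 (adjusted p = 3.62e-15). Beside this rise with the agonist stand the fall of Crp and the rise of Apcs given above, and the part of Creb3l3 in either was not tested. Cebpb, a main C/EBP factor of the response, also named after its values were seen, had no called change, with group means from 103 to 128 CPM. It was the 1 factor of the 13 not called for CP775146 in wild type. Cebpd averaged 9.37 CPM in treated and 12.6 in untreated knock-in, and 8.01 in treated and 13.2 in untreated wild type. Treated Cebpd libraries were below untreated ones in each genotype. Cebpa averaged 88.1 and 88.3 CPM in the knock-in, and 95 and 84.4 in wild type, in the same order. Nr3c1, the glucocorticoid receptor, fell in the knock-in with treatment (-0.52 ± 0.04, adjusted p = 4.62e-11) and without it (-0.43 ± 0.04, adjusted p = 3e-09).

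Of 12 genes for receptors and enzymes that clear the reactants or their cargo, 9 were tested. With CP775146, 2 rose and 3 fell in the knock-in, as did 2 and 3 without it, beside 42.5% of all genes called with it and 37% without it. The agonist raised 5 and lowered 1 in the knock-in, and raised 3 and lowered 2 in wild type, beside 37.2% of all genes called in the knock-in and 45% in wild type. Asgr1, the asialoglycoprotein receptor that removes desialylated plasma proteins, rose with CP775146 by 0.68 ± 0.05 in the knock-in (adjusted p = 4.94e-13) and 0.75 ± 0.04 in wild type (adjusted p = 2.4e-14). Asgr1 was lower in the knock-in with treatment (-0.55 ± 0.04) and without it (-0.48 ± 0.05). Cd163, the macrophage receptor for haptoglobin bound to haemoglobin, stayed at or below 1.61 CPM in every library. Blvrb, which reduces biliverdin from broken-down haem, was higher in the knock-in by 0.75 ± 0.05 with treatment (adjusted p = 5.46e-14) and 0.69 ± 0.05 without it (adjusted p = 8.14e-13).

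**Figure D4:**
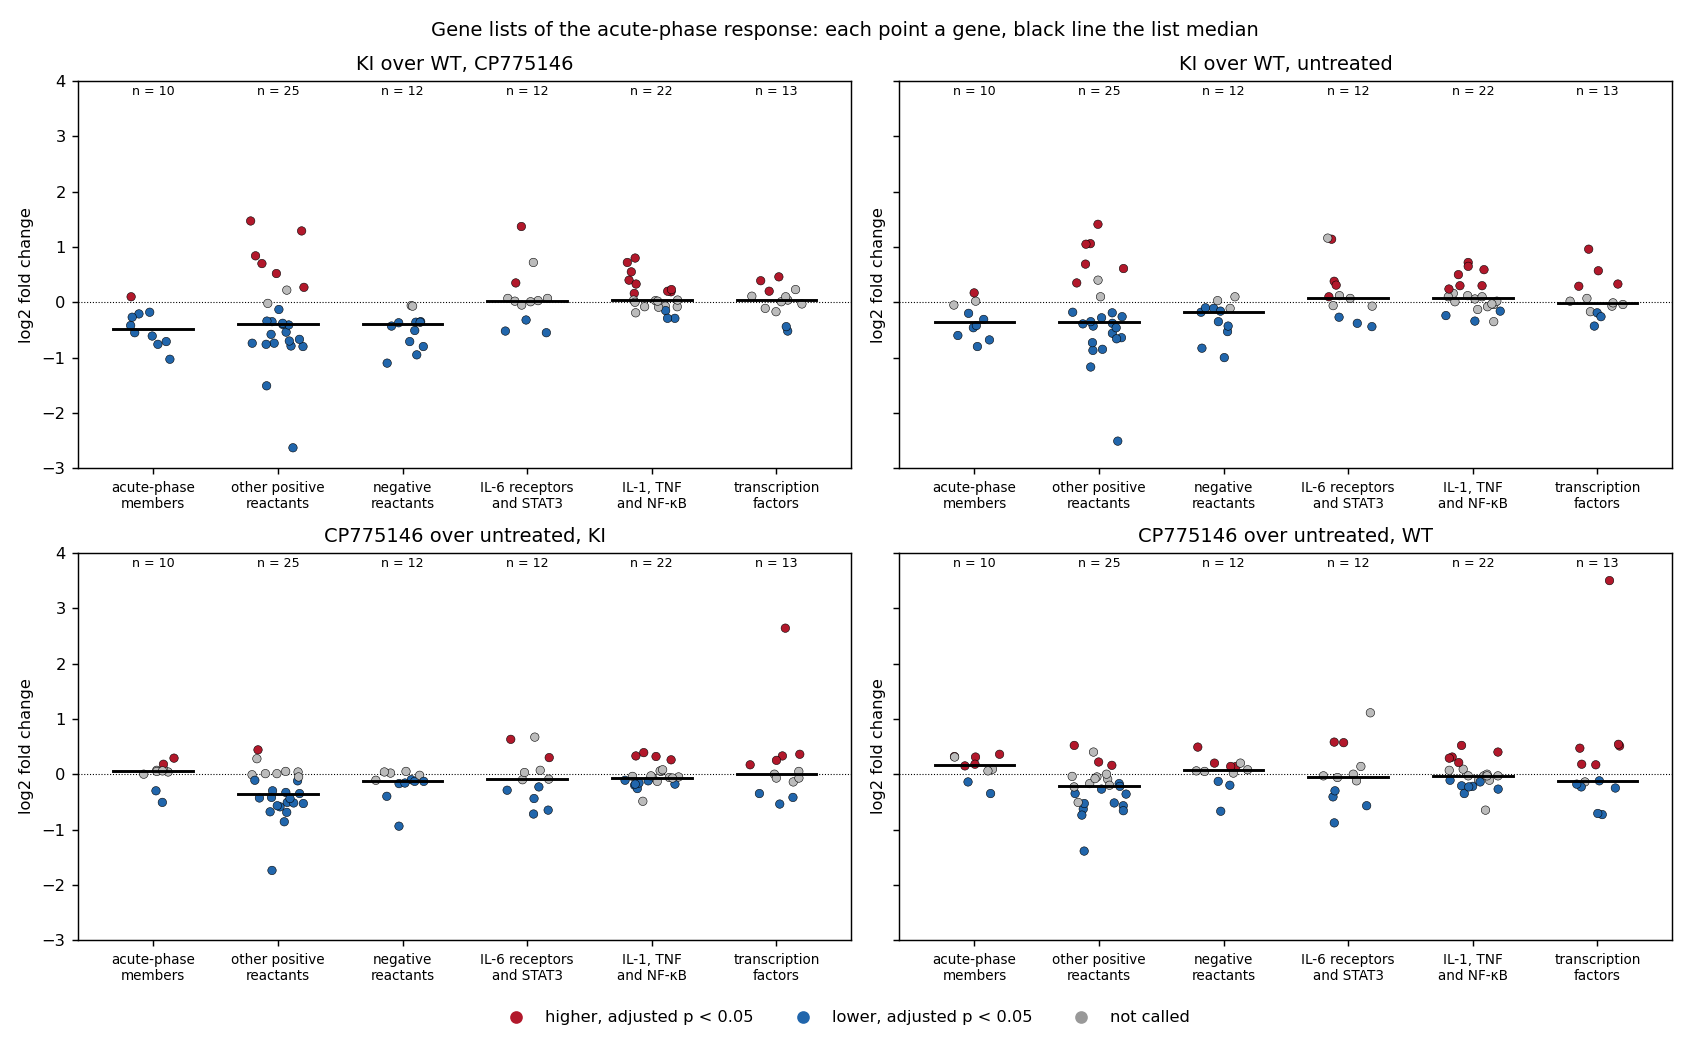
Log2 fold changes (vertical axis) of the tested genes of 6 lists (horizontal axis) in the 4 comparisons of 2 groups, with a point for each gene, red and blue for called rises and falls, grey for uncalled and a black line for the list's median. Positive and negative reactants both have medians below 0 in the genotype panels, and Creb3l3 is the highest point of both CP775146 panels, at 2.64 in the knock-in and 3.5 in wild type.

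Genes with the most similar profile were sought for the 4 acute-phase genes with the widest ranges, as the smallest root mean square difference of centred log2 CPM over the 12 libraries. Nrbp2 and Retreg1 were nearest to Crp, each at 0.064. Tmprss6 was nearest to Hpx at 0.038, with 223 CPM in treated knock-in, 258 in untreated knock-in, 322 in treated wild type and 360 in untreated wild type. Eif4a2 was nearest to Orm2 at 0.069 and Hsd17b13 to Saa3 at 0.157. The 12 libraries fall into the same 4 groups for every gene, and similarity of profile is given as a description.

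Markers of cell types also stood at different levels in the 4 groups. The summed level of 10 hepatocyte markers, led by Alb, ran from 81720 to 84281 CPM in treated knock-in, 90606 to 95202 in untreated knock-in, 125809 to 132010 in treated wild type and 127090 to 129610 in untreated wild type. Alb makes up most of that sum, and the other markers did not all follow it. Of the 10, which include Ahsg, Apoa1 and Fgb, 2 rose and 6 fell in the knock-in with treatment, and 1 rose and 5 fell without it. Over all tested genes, 20.5% rose and 22% fell with treatment, and 18.4% rose and 18.6% fell without it. Apob, for the protein of very-low-density lipoprotein, was higher in the knock-in with treatment (0.41 ± 0.05, adjusted p = 2.36e-06) and without it (0.24 ± 0.05, adjusted p = 0.00125). Cps1, of the urea cycle, was higher in the knock-in with treatment (0.54 ± 0.04, adjusted p = 2.63e-11). Hnf4a, a hepatocyte transcription factor, differed by 0.04 ± 0.03 with treatment (adjusted p = 0.389) and by -0.01 ± 0.03 without it (adjusted p = 0.793). These 3 genes were named after their values were seen. The 10 macrophage markers ran from 107 to 122 CPM in treated knock-in, 154 to 162 in untreated knock-in, 186 to 190 in treated wild type and 213 to 254 in untreated wild type, nearly all of it Cd68. The list as a whole did not follow that sum, and 7 of the 10 stayed below 1 CPM in every library. Of the 9 tested, 4 rose and 1 fell in the knock-in with treatment (median 0.38). Without treatment 2 rose and 1 fell (median 0.32). The 9 stellate cell markers, led by Reln, ran from 65.6 to 75.2 CPM in treated knock-in, 106 to 119 in untreated knock-in, 156 to 194 in treated wild type and 183 to 216 in untreated wild type. Reln alone made up nearly all of that sum, and 5 of the 9 stayed below 1 CPM in every library. Of the 7 tested, 0 rose and 2 fell in the knock-in, with and without treatment. The 8 endothelial markers, led by Stab2, ran from 34.7 to 40 CPM in treated knock-in, 46.3 to 51.9 in untreated knock-in, 66.1 to 68.5 in treated wild type and 76.2 to 87.6 in untreated wild type. Stab2 made up most of that sum. Of the 6 endothelial markers tested, 0 rose and 2 fell in the knock-in, with and without treatment. The 7 cholangiocyte markers ran the other way, from 65.8 to 70.5 CPM in treated knock-in, 64 to 67.1 in untreated knock-in, 48.4 to 49.5 in treated wild type and 34.1 to 38.2 in untreated wild type. The part of these markers in the acute-phase values was not tested.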

How the data were processed

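RNA of primary hepatocytes was sequenced in 12 libraries, 4 groups of 3, from total RNA with a TruSeq kit on a HiSeq3000, per the labels' protocols. The deposited values are raw read counts per gene, 1 table per library. Per the file headers, the authors counted reads over exons with featureCounts 1.6.2 on Subread alignments with Ensembl release 83 (GRCm38/mm10), without a strand or multi-mapping option. The submitters' processing notes name featureCounts 1.4.6-p4 in its place, with cutadapt 1.9 and FastQC 0.11.2. Reads of near-identical or antisense genes therefore cannot be assigned with certainty. The prefix of the CP775146 dose is stored as a Symbol-font character and was read as µ.

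Of 46983 gene IDs, 46488 matched a symbol. Genes with low counts were removed by filterByExpr (count of at least 10, total of at least 15), and TMM scaling was applied. A single model of all 12 libraries, with 1 mean per group, was fitted in edgeR 4.0.16 (R 4.3.3, robust glmQLFit), and 5 contrasts were tested with glmQLFTest. The procedure was tested on simulated data. Within-library ratios were compared by exact two-sided permutation tests. Alternatives were scaling by RLE or by total counts, the tools DESeq2 1.42.0 and limma 3.58.1 (voom, sample weights), leaving the filter out or requiring 5 CPM in 3 libraries, the compared groups alone, replicate blocks, near-identical copies summed, and each library left out. Named genes were the 10 members, Saa4, Orm3, Mtdh, Ppara and Alb, up to 3 genes per list and comparison with the smallest adjusted p, the 3 nearest genes of the 4 members with the widest ranges, and leading or absent cell markers. The members and lists were chosen with earlier results of these data known. Promoters of 8 members are from RefSeq (GRCm38.p6); those of Hp and Orm1 were not used here. A count of 3, taken as the floor, equals 0.086 to 0.111 CPM before TMM scaling, and a gene without reads stands at 0 CPM.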

Additional observations from a re-analysis of the deposited data

Results flagged for a closer look

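Saa2 was flagged because its response to CP775146 differed between the genotypes by the interaction test of edgeR. The response in the knock-in minus that in wild type was -0.23 on the log2 scale (adjusted p = 0.0132). All 3 treated wild-type libraries were above all 3 untreated ones, and so were the treated knock-in libraries, at a smaller distance. The call was lost without treated wild-type replicate 3 (-0.17, adjusted p = 0.0694) and with Saa1 and Saa2 summed (-0.15, adjusted p = 0.124). Its adjusted p over the alternatives ran from 0.000346 to 0.124. Of all tested genes, 7.11% were called for the interaction, 4.33% as falls. At that share a call among 10 genes is not rare, so the call does not set Saa2 apart. The part of read assignment between the copies was not tested.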

How the results depend on the processing

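Of 1070 values of the 10 genes across 5 contrasts and their alternatives, 1021 kept direction and side of the threshold, 15 lost the call, 19 gained it and 15 changed sign. The count of genes called for the interaction, 1, was 2 without the filter, 2 with DESeq2, 3 with limma voom, 0 with copies summed, and 0 to 3 with a library left out. It was 2 without treated wild-type replicate 1, 3 without replicate 2 and 0 without replicate 3. Over all genes the interaction gave 1113 calls, and 732 to 1468 with a library left out, the lowest without treated knock-in replicate 1.

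Total-count scaling changed the sign of Hp for genotype without treatment (0.06), Orm2 (-0.01) and Lcn2 (-0.03) for CP775146 in wild type, Saa1 (-0.02) and Orm1 (-0.01) for CP775146 in the knock-in, and the Orm2 interaction (0.01). None of these was called in the edgeR fit with TMM. Summing copies turned Saa2 for genotype without treatment to -0.17. Lcn2 for CP775146 in the knock-in was 0 in the compared groups alone and -0.02 to 0.01 with a library left out, and the Orm2 interaction -0.07 to 0.04. Total-count scaling moved the split of rises and falls over all genes to 5024 and 1722 (genotype, untreated, from 2884 and 2918 with TMM), 5950 and 1867 (genotype, treated, from 3218 and 3447), 2066 and 4352 (CP775146 in the knock-in, from 2832 and 2989), 2358 and 5338 (CP775146 in wild type, from 3553 and 3496) and 663 and 519 (interaction, from 435 and 678).

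Replicate numbers gave no sign of pairing over all genes. Deviations of same-numbered libraries correlated at -0.026 to 0.063, and those of differently numbered ones at -0.073 to 0.071. A correlation over all genes cannot show whether the libraries were paired for single genes. With the replicate number as a block, 5775, 6638, 5761 and 7023 genes were called for genotype untreated and treated and CP775146 in the knock-in and wild type. Saa3 was then called for CP775146 in wild type (0.3, adjusted p = 0.000993), also with the block within genotype (0.3, adjusted p = 0.000275), and Apcs for genotype with treatment was not (adjusted p = 0.06). With 3 libraries a group of unstated source, the Apcs genotype difference with treatment and the Saa2 interaction are among the calls that depended on single libraries.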
